A study of Mus musculus with 16 samples.

Results

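The nuclear genes for subunits of the oxidative phosphorylation complexes were followed in mouse lung across 4 groups of mice. Members were all probes whose annotated symbol began with Nduf, Uqcr or Atp5, or with Cox followed by a digit of 4 to 8, or was Sdha, Sdhb, Sdhc or Sdhd, with the muscle isoforms Cox8b and Cox6a2 left out. The rule took 105 of 25697 probes, for 83 of 16593 genes. Of these, 75 genes with 94 probes encode subunits of complexes I to V, and the muscle isoform Cox7a1 was kept apart. The other 7 genes, with 10 probes, carry a matching symbol without encoding a subunit: the complex I assembly factors Ndufaf1, Ndufaf3, Ndufaf4, Ndufaf5 and Ndufaf7, the supercomplex factor Cox7a2l and the pseudogene Ndufs5-ps. Sdha had 0 probes. The rule itself uses symbols and no measured value, but it was chosen with earlier results of these data known.

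The lungs came from 16 female mice of the strain C57BL/6N, and each RNA was measured on an Illumina bead array of its own, with 4 mice per group. The groups were Prdm11 knockout mice challenged with ovalbumin (OVA), wild type mice challenged with OVA, untreated Prdm11 knockout mice and untreated wild type mice. Prdm11 belongs to the PRDM family, which regulates transcription, and the labels do not say how the allele was made. OVA, an egg-white protein, provokes allergic airway inflammation in sensitised mice. The challenged mice had received 10 µg OVA in 2 mg alum intraperitoneally, followed by 3 exposures of 30 min to an aerosol of 1% OVA. Challenged mice were 35 weeks old and untreated mice 22 weeks old, so that challenge and age cannot be told apart. The labels do not say whether the untreated mice had been sensitised. Prdm11 had 0 probes, so genotype rests on the labels.

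Oxidative phosphorylation is carried out in the inner mitochondrial membrane. Complex I (NADH dehydrogenase) and complex II (succinate dehydrogenase) feed electrons through complex III to complex IV (cytochrome c oxidase), and complex V (ATP synthase) uses the resulting proton gradient to make ATP. Most subunits are encoded in the nucleus and a small core set in mitochondrial DNA. Heart, skeletal muscle and brown fat are rich in these complexes and use muscle isoforms of some complex IV subunits, whereas most other tissues use the ubiquitous isoforms.

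Promoter sequence is shown for 5 subunit genes, all of which held motif matches, and for Cox7a1 as the isoform set apart. The 5 were picked and do not stand for the subunit genes as a whole. The windows of Atp5g1, Atp5e, Cox5a, Ndufb5, Sdhb and Cox7b, not printed, held 0 matches. Each window covers 250 bases before to 50 bases after the RefSeq start on GRCm38.p6 and is printed 5′ to 3′ on the gene's strand, with motif matches in capitals. The motifs searched on both strands were GCGCA, any base and GCGC for NRF1, CCGGAAGT for GABPA, AANATGGCG for YY1 and TCAAGGTCA for ERRA, all factors with textbook roles in the control of respiratory chain genes. In the YY1 motif N stands for any base, and no match overlapped another of a different motif in the windows printed. In Ndufb4 (chr16:37654319-37654618, minus strand) the capitals mark 3 NRF1 matches, and in Ndufs6 (chr13:73328433-73328732, minus strand) 1 NRF1 and 1 YY1 match. In Sdhd (chr9:50603800-50604099, minus strand) and in Atp5g3 (chr2:73911277-73911576, minus strand) they mark 1 NRF1 and 1 ERRA match each. Uqcr11 (chr10:80406772-80407071, minus strand) held 1 GABPA match, and Cox7a1 (chr7:30183921-30184220, plus strand) held 0 matches.
Ndufb4: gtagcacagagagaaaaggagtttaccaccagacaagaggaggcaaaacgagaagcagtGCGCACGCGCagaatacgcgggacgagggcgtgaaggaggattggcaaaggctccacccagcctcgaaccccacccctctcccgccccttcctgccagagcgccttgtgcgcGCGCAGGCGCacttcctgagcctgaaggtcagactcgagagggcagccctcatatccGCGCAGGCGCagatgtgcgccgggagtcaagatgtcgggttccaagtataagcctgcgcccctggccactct
Ndufs6: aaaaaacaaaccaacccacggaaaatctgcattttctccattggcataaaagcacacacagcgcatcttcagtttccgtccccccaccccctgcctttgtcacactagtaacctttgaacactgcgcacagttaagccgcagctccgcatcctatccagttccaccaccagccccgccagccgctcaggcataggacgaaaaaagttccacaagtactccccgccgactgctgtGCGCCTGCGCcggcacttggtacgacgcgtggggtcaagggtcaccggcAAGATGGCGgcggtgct
Sdhd: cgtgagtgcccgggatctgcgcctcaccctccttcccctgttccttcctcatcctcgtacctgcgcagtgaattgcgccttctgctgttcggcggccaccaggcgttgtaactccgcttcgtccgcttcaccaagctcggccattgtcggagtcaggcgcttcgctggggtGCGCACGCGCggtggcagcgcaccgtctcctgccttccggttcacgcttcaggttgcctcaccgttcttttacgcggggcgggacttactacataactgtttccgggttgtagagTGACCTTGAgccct
Atp5g3: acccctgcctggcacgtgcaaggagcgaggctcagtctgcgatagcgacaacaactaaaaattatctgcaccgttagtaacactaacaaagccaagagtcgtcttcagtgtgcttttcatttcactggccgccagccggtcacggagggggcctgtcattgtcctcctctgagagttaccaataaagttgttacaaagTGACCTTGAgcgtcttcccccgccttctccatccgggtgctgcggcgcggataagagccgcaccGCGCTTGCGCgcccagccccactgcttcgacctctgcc
Uqcr11: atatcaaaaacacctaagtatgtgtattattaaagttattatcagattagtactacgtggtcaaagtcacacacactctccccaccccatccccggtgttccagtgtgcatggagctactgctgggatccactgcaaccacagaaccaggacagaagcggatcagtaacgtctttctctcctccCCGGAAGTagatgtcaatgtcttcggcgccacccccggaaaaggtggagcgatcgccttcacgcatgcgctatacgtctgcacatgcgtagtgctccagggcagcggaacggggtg
Cox7a1: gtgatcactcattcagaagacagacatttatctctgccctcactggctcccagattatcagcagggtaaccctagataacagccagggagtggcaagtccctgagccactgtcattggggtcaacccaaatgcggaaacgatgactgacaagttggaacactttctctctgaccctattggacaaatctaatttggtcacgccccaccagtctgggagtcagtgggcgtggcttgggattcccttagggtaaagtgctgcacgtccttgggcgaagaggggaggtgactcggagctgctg

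Among the 75 subunit genes, 62 matched the RefSeq promoter table, with 67 windows. At least 1 of the 4 motifs was found in 41.8% of these windows, against 16.6% of the 12841 windows of genes with a tested probe. Over all 32851 windows the share was 10.4%. By complex, it was 40.6% of 32 windows in complex I, 18.2% of 11 in complex IV and 52.9% of 17 in complex V. Complexes II and III had 2 and 5 windows. NRF1 matches were found in 22.4% of subunit windows, against 7.84% of the windows of genes with a tested probe. YY1 matches were found in 14.9% of subunit windows, against 3.79% of the windows of genes with a tested probe. For GABPA the shares were 7.46% of subunit windows and 6.23% of windows of genes with a tested probe, and for ERRA 2.99% (2 windows) and 0.327%. The median GC content was 57.7% in subunit windows and 58.7% in windows of genes with a tested probe. These are letter matches and describe sequence only.

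Of the member probes, 93 of 105 were bright enough to be tested among 17810 probes in all, and each tested gene is described by its brightest tested probe. Levels are log2 intensity and differences are log2 differences, each with its standard error from 1 limma fit over all 16 arrays, and calls were made where p, adjusted by Benjamini-Hochberg over all tested probes, was under 0.05. Among subunit genes, 70 of 75 were tested. Ndufs1 and Ndufb11 of complex I, Uqcrfs1 of complex III and the tissue isoforms Cox7b2 and Cox8c of complex IV were too dim, as was the assembly factor Ndufaf3. Array medians lay between 85.4 and 86.5 intensity units. Challenged wild type mouse 4 stood apart, correlating at 0.676 to 0.842 with the other 15 arrays, which correlated at 0.877 to 0.99 among themselves. The 9 lung markers examined, which included surfactant, club cell and endothelial genes, were above the 40th percentile of every array. The number of arrays limits the precision.

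Most subunit genes were brighter in the challenged lungs of either genotype. In knockout mice 55 of the 70 tested subunit genes rose with challenge, 1 fell (Cox4i2) and 14 did not pass the test. Among wild type mice 44 rose, 0 fell and 26 did not pass. The median difference over the 70 genes was 0.96 in knockout mice, or 1.94-fold, and 0.65 in wild type mice, or 1.56-fold. The median over all tested probes was -0.05 in knockout mice and 0.03 in wild type mice.

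Counted over probes, 69 of the 93 tested member probes rose in knockout mice, or 74.2%, against 9.1% of all tested probes, and 1 fell, against 7.48% of all tested probes. In wild type mice 53 of 93 rose, or 57.0%, against 11.7% of all tested probes, and 1 fell, against 17.7%. The challenged and untreated mice did not overlap, with the challenged mice higher, at 69 member probes in knockout mice, against 14.7% of all tested probes. The same held in wild type mice at 51 member probes, against 10.4% of all tested probes. A total of 41 subunit genes rose in both genotypes, 14 were called higher in knockout mice alone, 3 in wild type mice alone and 12 in neither. The genotype difference in these effects is tested further on, and a call in 1 genotype alone does not show one.

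**Figure D1:**
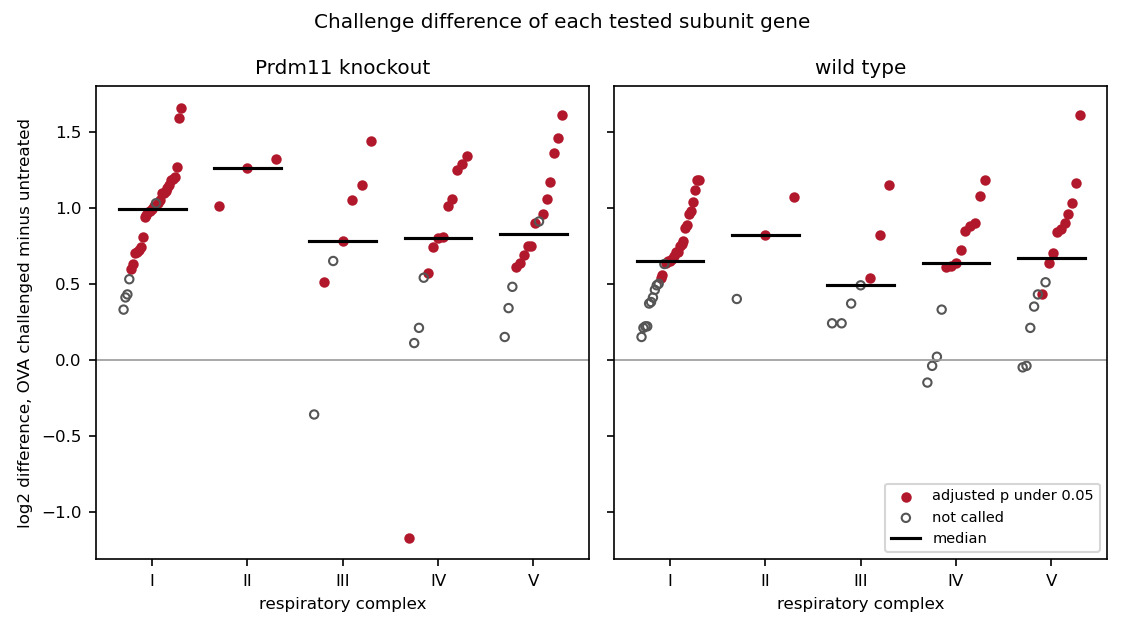
Log2 difference between OVA challenged and untreated mice for each of the 70 tested subunit genes, by respiratory complex, in knockout (left) and wild type (right). Filled points are genes at an adjusted p under 0.05 (limma), open points are genes not called, and bars are medians. The points of every complex lie mostly above 0 in both genotypes, with Cox4i2 of complex IV as the 1 filled point below 0 in knockout mice.

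The mean log2 intensity over the 70 subunit genes was 10.54, 9.91, 10.55 and 10.44 in challenged knockout mice and 10.06, 10.29, 9.91 and 9.64 in challenged wild type mice. It was 9.42, 9.56, 9.53 and 9.47 in untreated knockout mice and 9.44, 9.25, 9.39 and 9.27 in untreated wild type mice. Every challenged mouse was therefore above every untreated mouse. The spread was wider after challenge, with SDs of 0.31 and 0.27 in challenged knockout and wild type mice, against 0.06 and 0.09 in untreated knockout and wild type mice.

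Gene by gene, challenged knockout mice exceeded all 4 untreated mice of their genotype at 66, 56, 67 and 67 of the 70 subunit genes. For challenged wild type mice the counts were 63, 65, 60 and 45. Over all tested probes the matching shares were 28.3% to 32.4% in challenged knockout mice and 30.2% to 42.4% in challenged wild type mice. Challenged wild type mouse 4, the array that stood apart, also held 14 subunit genes below all 4 untreated wild type mice, among them Sdhd, Cox7b, Ndufb10 and Uqcrc1. The other 7 challenged mice held 1 to 4 such genes each.

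**Figure D2:**
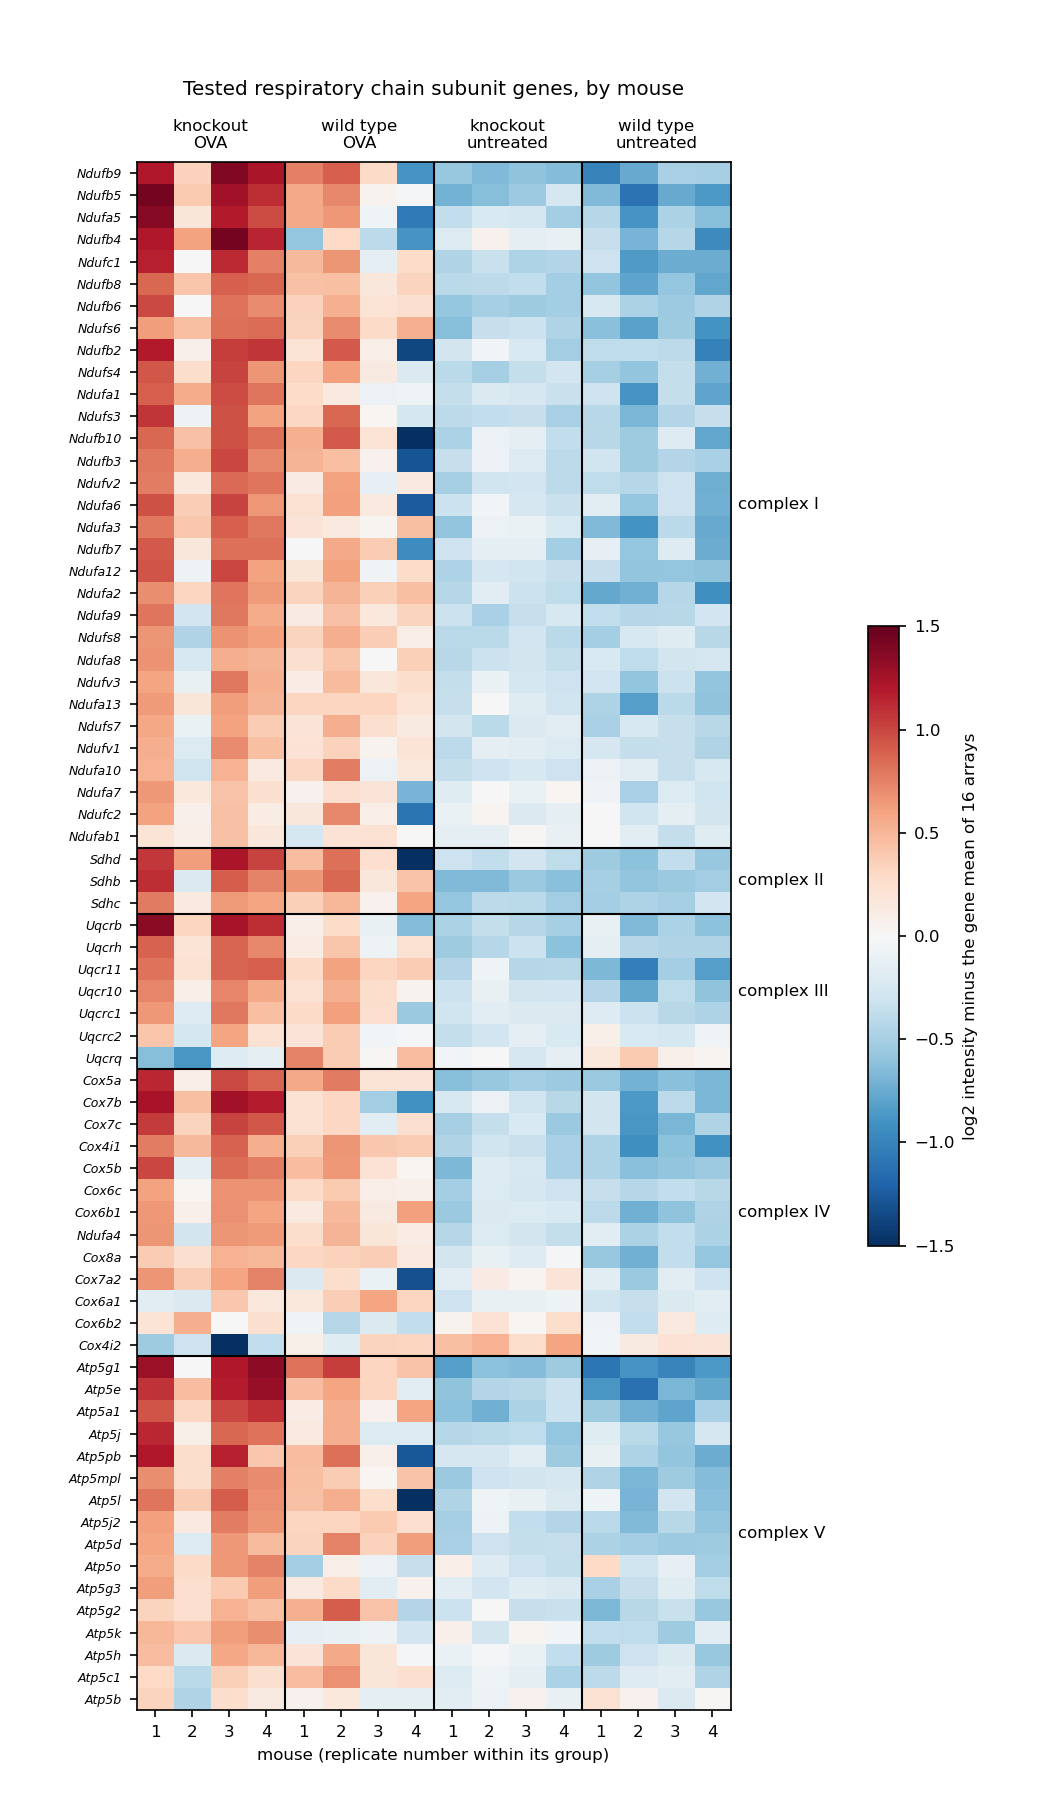
Log2 intensity of each tested subunit gene minus its mean over the 16 arrays, with genes as rows by complex and mice as columns in the order challenged knockout, challenged wild type, untreated knockout and untreated wild type. Colours saturate at the ends of the scale. The challenged columns are above the gene mean for most genes, least so in challenged knockout mouse 2 (48 of 70) and challenged wild type mouse 4 (39 of 70), against 3 to 8 of 70 in untreated mice.

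Complex I passes electrons from NADH to ubiquinone, and its core subunits carry the flavin and iron-sulphur clusters. Of its 31 tested genes, 26 rose in knockout mice and 20 in wild type mice, with median differences of 0.99 and 0.65. All 5 tested core genes (Ndufs3, Ndufs7, Ndufs8, Ndufv1 and Ndufv2) rose in both genotypes, with medians of 0.74 in knockout and 0.65 in wild type mice. Of the 26 tested accessory genes, 21 rose in knockout mice and 15 in wild type mice.

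Ndufb9, an accessory subunit of the membrane arm, had the largest called change of complex I in knockout mice. Its log2 intensity was 9.94, 9.09, 10.13 and 9.96 in challenged knockout mice, against 8.17, 8.08, 8.13 and 8.09 in untreated knockout mice. In challenged wild type mice it was 9.50, 9.64, 9.03 and 7.86, against 7.74, 7.98, 8.25 and 8.24 in untreated wild type mice. The knockout groups were fully apart, whereas challenged wild type mouse 4 lay among the untreated wild type mice. The difference was 1.66 ± 0.31 in knockout mice (3.17-fold, adjusted p = 0.00167, limma) and 0.96 ± 0.31 in wild type mice (adjusted p = 0.0299, limma). The wild type call was lost in 4 of the 16 fits that left out 1 array (adjusted p up to 0.0879, limma), with the 8 arrays of the comparison alone (adjusted p = 0.114, limma) and with the striated muscle covariate described further on (0.41, adjusted p = 0.562, limma).

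Ndufb5, another accessory subunit of the membrane arm, and Ndufs6 headed the called changes of complex I in wild type mice. The difference for Ndufb5 was 1.59 ± 0.21 in knockout mice and 1.18 ± 0.21 in wild type mice (adjusted p = 0.000194 and 0.00121, limma). Ndufs6 is a zinc-binding accessory subunit. Its log2 intensity was 11.77, 11.60, 11.98 and 11.99 in challenged knockout mice and 11.48, 11.86, 11.43 and 11.68 in challenged wild type mice. In untreated mice it was 10.51, 10.80, 10.83 and 10.70 in knockout and 10.52, 10.35, 10.62 and 10.25 in wild type mice. Challenged and untreated mice did not overlap in either genotype, and challenged wild type mouse 4 was in the middle of its group here. The difference was 1.13 ± 0.13 in knockout mice and 1.18 ± 0.13 in wild type mice (adjusted p = 7.48e-05 and 4.56e-05, limma).

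Ndufa2, an accessory subunit of the peripheral arm, differed by 0.94 ± 0.12 in knockout mice and by 1.12 ± 0.12 in wild type mice (adjusted p = 0.000153 and 4.56e-05, limma). Ndufa5, also of the peripheral arm, rose in knockout mice by 1.27 ± 0.31 (adjusted p = 0.00983, limma). Ndufa5 differed in wild type mice by 0.63 ± 0.31 (adjusted p = 0.129, limma), with 8.14 in challenged wild type mouse 4, against 9.13 to 9.84 in the other 3 challenged wild type mice. Without mouse 4 the wild type difference was 0.99 and called (adjusted p = 0.00388, limma).

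Complex II oxidises succinate and is the complex shared with the citric acid cycle. All 3 measured genes rose in knockout mice and 2 rose in wild type mice. The iron-sulphur subunit Sdhb differed by 1.26 ± 0.22 in knockout mice and 1.07 ± 0.22 in wild type mice (adjusted p = 0.000953 and 0.00248, limma). The membrane anchor Sdhc differed by 1.01 ± 0.14 in knockout mice and 0.82 ± 0.14 in wild type mice (adjusted p = 0.000212 and 0.000776, limma).

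Sdhd, the other membrane anchor of complex II, turned on a single array. Its log2 intensity was 9.45, 9.02, 9.61 and 9.40 in challenged knockout mice, against 8.08, 8.02, 8.10 and 8.01 in untreated knockout mice. In challenged wild type mice it was 8.85, 9.22, 8.64 and 6.36, against 7.85, 7.77, 8.02 and 7.82 in untreated wild type mice. Challenged wild type mouse 4 was the lowest of all 16 mice. The difference was 1.32 ± 0.42 in knockout mice and 0.40 ± 0.42 in wild type mice (adjusted p = 0.0404 and 0.462, limma). Without that mouse the wild type difference was 1.04 (adjusted p = 7.4e-05, limma). The knockout call was lost in 11 of the 16 fits that left out 1 array.

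Complex III carries electrons from ubiquinol to cytochrome c. Of its 7 tested genes, 5 rose in knockout mice and 3 in wild type mice, with median differences of 0.78 and 0.49. Uqcr11, its smallest subunit by textbook account, had the largest change in wild type mice. Its log2 intensity was 12.07, 11.48, 12.12 and 12.15 in challenged knockout mice and 11.54, 11.85, 11.57 and 11.63 in challenged wild type mice. In untreated mice it was 10.81, 11.19, 10.82 and 10.83 in knockout and 10.58, 10.22, 10.74 and 10.42 in wild type mice. No challenged mouse overlapped an untreated one, and the difference was 1.05 ± 0.16 in knockout and 1.15 ± 0.16 in wild type mice (adjusted p = 0.000384 and 0.000154, limma).

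Uqcrh, the hinge protein that takes part in the contact with cytochrome c1, differed by 1.15 ± 0.15 in knockout mice and 0.54 ± 0.15 in wild type mice (adjusted p = 0.000153 and 0.0156, limma). Uqcr10, a small subunit of the complex, differed by 0.78 ± 0.15 in knockout mice and 0.82 ± 0.15 in wild type mice (adjusted p = 0.00182 and 0.00113, limma). Uqcrb, a ubiquinone-binding subunit, is described with the genotype comparison.

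Complex IV reduces oxygen to water, and several of its nuclear subunits exist as tissue isoforms. Of its 13 tested genes, 9 rose in each genotype, with median differences of 0.80 in knockout and 0.64 in wild type mice. The ubiquitous forms Cox4i1, Cox5a, Cox5b, Cox6b1, Cox6c, Cox7c and Cox8a rose in both genotypes. Cox5a, which binds thyroid hormone metabolites in the mammalian enzyme, had 12.33, 11.30, 12.19 and 12.08 in challenged knockout mice, against 10.56, 10.64, 10.69 and 10.66 in untreated knockout mice. In challenged wild type mice it had 11.77, 11.98, 11.41 and 11.40, against 10.65, 10.50, 10.58 and 10.52 in untreated wild type mice. Its groups did not overlap in either genotype, and it had the largest change of complex IV in knockout mice, 1.34 ± 0.18 (adjusted p = 0.000212, limma), against 1.08 ± 0.18 in wild type mice (adjusted p = 0.000789, limma).

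The 2 isoforms of subunit IV moved apart in knockout mice. Cox4i1, the ubiquitous isoform, had 12.32, 12.03, 12.43 and 12.09 in challenged knockout mice and 11.90, 12.21, 11.95 and 11.93 in challenged wild type mice. Untreated mice had 11.10, 11.25, 11.21 and 11.06 in knockout and 11.08, 10.63, 10.93 and 10.64 in wild type mice, so that all challenged mice lay above all untreated mice. The difference was 1.06 ± 0.13 in knockout and 1.18 ± 0.13 in wild type mice (adjusted p = 8.93e-05 and 4.32e-05, limma).

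Cox4i2 is the isoform enriched in lung and known for its link to low oxygen. It had 8.0, 8.22, 6.87 and 8.16 in challenged knockout mice, against 8.98, 9.05, 8.79 and 9.12 in untreated knockout mice. In challenged wild type mice it had 8.62, 8.35, 8.87 and 8.85, against 8.49, 8.67, 8.75 and 8.72 in untreated wild type mice. The challenged knockout mice lay below all other mice, and the wild type groups overlapped. Cox4i2 was the 1 subunit gene that fell with challenge, by -1.17 ± 0.23 in knockout mice (adjusted p = 0.00242, limma), against 0.02 ± 0.23 in wild type mice (adjusted p = 0.958, limma). Without challenged knockout mouse 3, the lowest, the knockout difference was -0.86 (adjusted p = 0.000836, limma). Beside it, 6 of the 9 lung markers fell and 1 (Sftpd) rose with challenge in knockout mice, and 2 fell in wild type mice. Over all tested probes 7.48% fell and 9.1% rose in knockout mice, and 17.7% fell in wild type mice. The part of lung cell content in the Cox4i2 difference was not tested, and in whole lung RNA fewer cells of a type and less RNA per cell cannot be told apart.

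For subunit VIa the ubiquitous Cox6a1 rose in wild type mice by 0.62 ± 0.13 (adjusted p = 0.0041, limma) and differed by 0.21 ± 0.13 in knockout mice (adjusted p = 0.338, limma). For subunit VIb, Cox6b1 differed by 0.80 ± 0.15 in knockout and 0.88 ± 0.15 in wild type mice (adjusted p = 0.00221 and 0.000957, limma), and the testis isoform Cox6b2 was not called in either. Cox6c rose by 0.81 in knockout and 0.61 in wild type mice, Cox7c by 1.25 and 0.72, Cox5b by 1.01 and 0.90 and Cox8a by 0.57 and 0.85, in the same order of genotypes. Ndufa4, long counted with complex I and now assigned to complex IV, rose by 0.74 in knockout and 0.64 in wild type mice. Cox7b, a small subunit needed for assembly of the enzyme, rose in knockout mice by 1.29 ± 0.25 (adjusted p = 0.00215, limma) and differed by 0.33 ± 0.25 in wild type mice (adjusted p = 0.305, limma).

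Cox7a1 is the heart and skeletal muscle form of subunit VIIa, and Cox7a2 is its form in most other tissues. Cox7a1 had 11.44, 9.62, 11.44 and 11.19 in challenged knockout mice, against 8.30, 8.67, 8.67 and 8.71 in untreated knockout mice. In challenged wild type mice it had 10.09, 10.64, 9.59 and 10.30, against 8.60, 7.94, 7.93 and 8.23 in untreated wild type mice. Challenged mice lay above all untreated mice, and the difference was the largest of all member genes in both genotypes, 2.33 ± 0.33 in knockout mice (5.04-fold, adjusted p = 0.000267, limma) and 1.98 ± 0.33 in wild type mice (3.95-fold, adjusted p = 0.000697, limma). Cox7a2 differed by 0.54 ± 0.24 in knockout mice and by -0.04 ± 0.24 in wild type mice, and neither difference passed (adjusted p = 0.145 and 0.907, limma). The knockout difference of Cox7a2, still 0.54, was called without challenged wild type mouse 4 (adjusted p = 0.00401, limma) and with the 8 arrays of the comparison alone (adjusted p = 0.00373, limma). The muscle isoforms left out of the members moved with Cox7a1: Cox6a2 differed by 2.03 ± 0.27 in knockout and 1.81 ± 0.27 in wild type mice, and Cox8b by 2.80 ± 0.42 and 2.23 ± 0.42, all of them called. Cox7a2l, a supercomplex factor that shares part of their name, differed by 0.16 in knockout and 0.09 in wild type mice and was not called. Without challenged wild type mouse 4, which had 7.70, the wild type difference of Cox7a2l was 0.55 and called (adjusted p = 0.00285, limma).

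**Figure D3:**
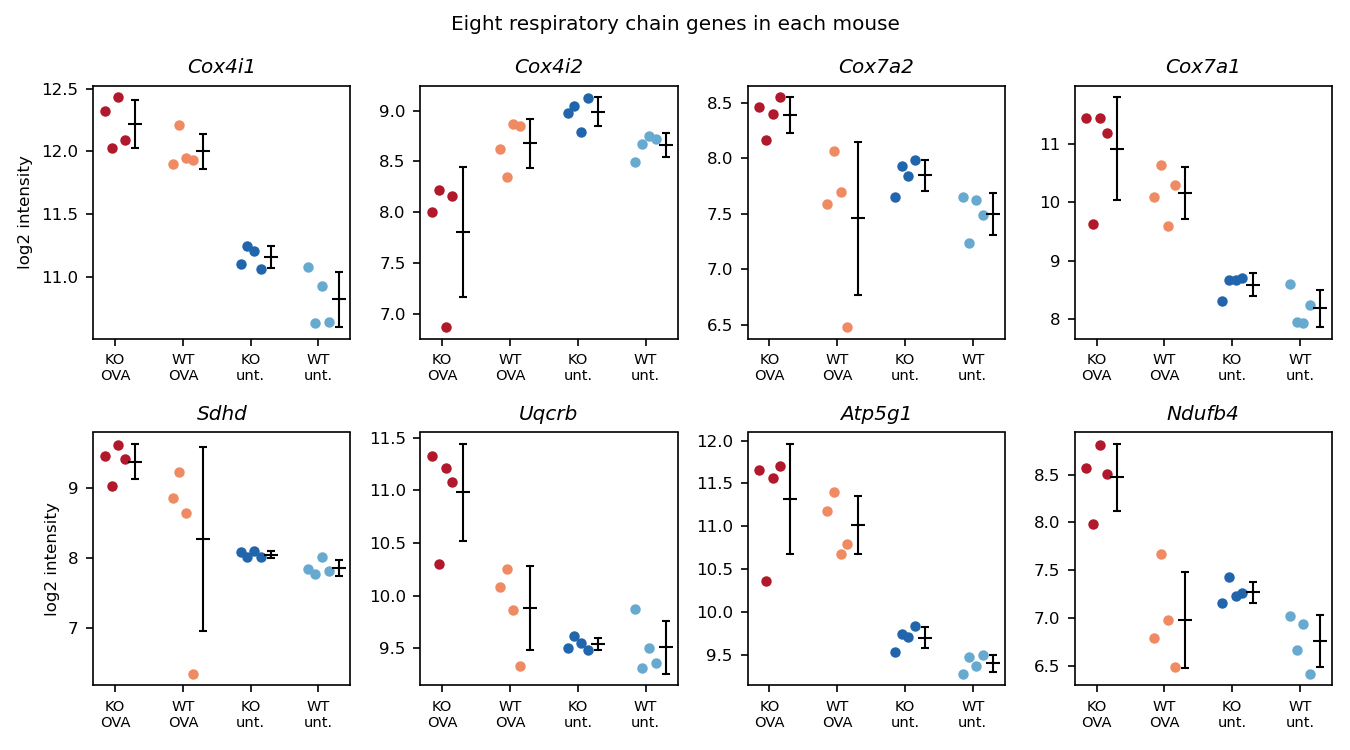
Log2 intensity of selected genes in each mouse, with 1 point per mouse and the group mean with SD beside the points, for the groups challenged knockout, challenged wild type, untreated knockout and untreated wild type from left to right. Cox4i1, Atp5g1 and Cox7a1 are higher in all challenged mice than in all untreated mice, Cox4i2 is lowest in challenged knockout mice, Sdhd has 1 low point at 6.36 in challenged wild type mice, and Ndufb4 and Uqcrb are highest in challenged knockout mice.

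Complex V couples a catalytic F1 part to a membrane rotor. Of its 16 tested genes, 12 rose in knockout mice and 10 in wild type mice, with median differences of 0.83 and 0.67. Of the 5 genes of the F1 part, 3 rose in knockout and 4 in wild type mice. Of the 11 genes of the peripheral stalk and membrane part, 9 and 6 rose. Atp5e, the epsilon subunit of F1, differed by 1.46 ± 0.18 in knockout and 1.16 ± 0.18 in wild type mice (adjusted p = 0.000135 and 0.000489, limma). Atp5a1, the alpha subunit, differed by 1.36 ± 0.17 in knockout and 0.96 ± 0.17 in wild type mice (adjusted p = 0.000123 and 0.00109, limma). The delta subunit Atp5d differed by 0.75 ± 0.16 in knockout and 1.03 ± 0.16 in wild type mice (adjusted p = 0.00396 and 0.000381, limma). The catalytic beta subunit Atp5b was not called, at 0.15 ± 0.15 in knockout and -0.04 ± 0.15 in wild type mice (adjusted p = 0.553 and 0.86, limma).

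Subunit c, which forms the ring of the rotor, is encoded by 3 genes whose mature proteins are the same. Atp5g1 had 11.66, 10.36, 11.56 and 11.70 in challenged knockout mice and 11.18, 11.40, 10.68 and 10.79 in challenged wild type mice. In untreated mice it had 9.53, 9.74, 9.71 and 9.83 in knockout and 9.28, 9.47, 9.37 and 9.50 in wild type mice. All challenged mice lay above all untreated mice, and the difference was 1.61 ± 0.24 in each genotype (3.06-fold in knockout and 3.05-fold in wild type mice, adjusted p = 0.00036 and 0.000298, limma). Atp5g2 differed by 0.64 ± 0.21 in knockout and 0.86 ± 0.21 in wild type mice (adjusted p = 0.0444 and 0.00709, limma), and its knockout call was lost in 12 of the 16 fits that left out 1 array. Atp5g3 differed by 0.69 ± 0.12 in knockout and 0.43 ± 0.12 in wild type mice (adjusted p = 0.00086 and 0.0128, limma).

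Dim genes and genes with several probes carry limits of their own. Atp5k, a small membrane subunit, was above the 40th percentile of the array in all 4 challenged knockout mice and in 0 of 4 mice of each other group, so it passed the brightness filter only through the group in which it was high and its calls carry no weight. It had 6.51, 6.41, 6.64 and 6.71 in challenged knockout mice, against 6.09, 5.73, 6.05 and 5.97 in untreated knockout mice. It is 1 of the 55 genes counted as higher with challenge in knockout mice and 1 of the 24 counted as higher in knockout than in wild type mice after challenge. Atp5o, a stalk subunit, was above the 40th percentile in 1 of 4 untreated knockout mice and was at least 1.6-fold higher in challenged knockout mice (adjusted p = 0.00794, limma). Of the member genes, 16 have several probes. For Atp5j the brightest probe gave 1.17 in knockout mice, whereas the dimmer probes gave 0.02 and -0.27 and were not called there. In wild type mice 1 of these Atp5j probes was the member probe that fell, by -0.38 (adjusted p = 0.0457, limma), whereas the brightest gave 0.43 and was not called. The dimmest probe of Sdhb was not called in either genotype, at 0.04 in knockout and 0.42 in wild type mice. The other genes whose probes disagreed in call were Ndufa8 in both genotypes, and Ndufc1 and Cox6a1 in wild type mice.

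Striated muscle markers moved with the subunit genes. The mean log2 intensity of 25 tested heart and skeletal muscle markers was 11.40, 10.27, 11.39 and 11.27 in challenged knockout mice and 10.29, 11.00, 9.07 and 10.13 in challenged wild type mice. It was 9.13, 8.92, 9.27 and 9.24 in untreated knockout mice and 8.85, 9.03, 8.72 and 9.16 in untreated wild type mice. Of the 25, 18 rose in knockout mice and 13 in wild type mice, against 9.1% and 11.7% of all tested probes. The median differences of the markers were 1.86 and 1.11. Myl2, the myosin light chain of heart ventricle and slow muscle, lay under the 40th percentile in all untreated animals. It passed the brightness filter only through challenged mice, so its calls, counted among the 18 and the 13, carry no weight. Myl2 was at least 25.6-fold higher in challenged knockout mice and at least 10.5-fold higher in challenged wild type mice. Within challenged knockout mice, mouse 2 was lowest in both the muscle and the subunit mean, and within challenged wild type mice, mouse 2 was highest in both. Challenged wild type mouse 3 had a muscle mean of 9.07, inside the range of the untreated mice, and a subunit mean of 9.91, above all of them. The muscle isoforms Cox7a1 (9.59), Cox6a2 (10.81) and Cox8b (9.72) of that mouse also lay above all untreated mice. Its mean over the tested brown fat markers was 7.29, against at most 6.72 in untreated mice. Its mean over 2 tested white fat markers was 8.77, against at most 8.54 in untreated mice. The white fat mean ran from 8.77 to 9.35 in challenged wild type mice and from 7.75 to 8.68 in challenged knockout mice. Which tissue these values came from was not tested. Of 5 tested brown fat markers, 3 were called higher in challenged knockout mice (Cidea, Cpt1b and Ucp1) and 0 lower, and in wild type mice Cpt1b was higher and Ppargc1a lower. Over all tested probes 9.1% were higher and 7.48% lower in knockout mice, and 11.7% and 17.7% in wild type mice. Cidea and Ucp1 were above the 40th percentile in 0 of 4 untreated knockout mice. They were at least 3.62-fold and 1.64-fold higher in challenged knockout mice. Among knockout mice they exceeded that level only after challenge, so their calls carry no weight.

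With the muscle mean as a covariate in the limma fit, 0 of 93 member probes were called for challenge in knockout mice, and 21 of 93 had an unadjusted p under 0.05, against 2153 of all 17810 probes. The same fit called 0 of all 17810 probes for challenge in knockout mice. Its median standard error over the 93 member probes was 0.28, against 0.18 without the covariate. The median member difference in knockout mice was 0.30 in that fit. In wild type mice 11 of 93 member probes were called with the covariate, against 744 of all 17810 probes (11.8% and 4.18%), with a median of 0.25 over all member probes. They were Atp5g1 (0.90), Atp5j2 (0.75), Atp5mpl (0.61), Cox4i1 (1.05), Cox8a (0.82), Ndufa13 (0.78), Ndufa2 (0.99), Ndufb8 (0.80), Ndufs6 (0.97), Uqcr11 (0.93) and a dimmer probe of Uqcr10 (0.65), whereas the brightest Uqcr10 probe gave 0.58 in that fit and was no longer called (adjusted p = 0.102, limma).

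**Figure D4:**
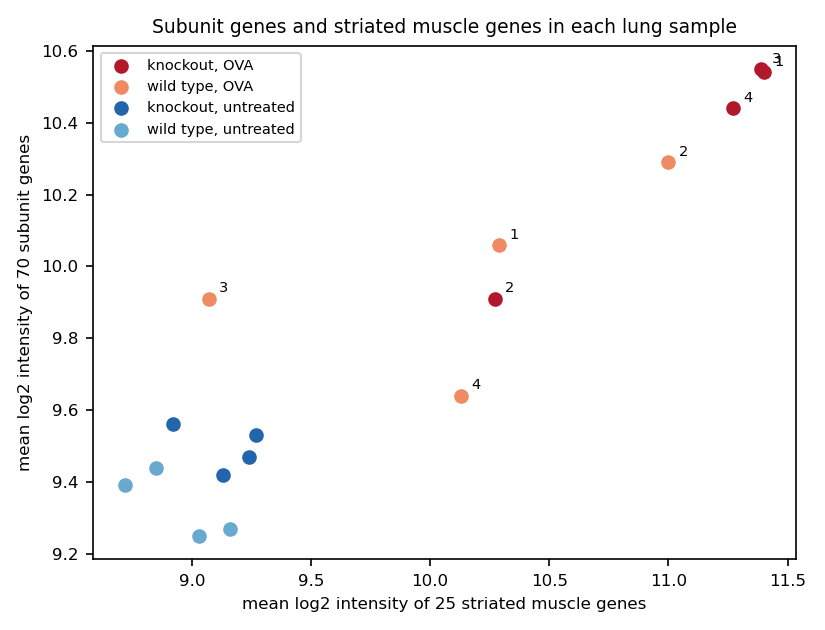
Mean log2 intensity of the 70 tested subunit genes (vertical axis) against the mean of 25 striated muscle markers (horizontal axis), 1 point per mouse, coloured by group. Challenged mice lie above all untreated mice on the vertical axis, and challenged wild type mouse 3 does so at a muscle mean of 9.07. The muscle isoform Cox7a1 of that mouse, at 9.59 and not plotted here, was above all untreated mice too.

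The genotype comparison after challenge asked whether knockout and wild type lungs differed under the same exposure. Knockout mice were higher at 24 of the 70 tested subunit genes and lower at 2, Cox4i2 and Uqcrq, and 44 did not pass, with a median difference of 0.32. Over probes, 33 of 93 were higher in challenged knockout mice, or 35.5%, against 21.1% of all tested probes, and 4 of 93 were lower, or 4.3%, against 23.1%. The number of member probes called in either direction was 37 of 93 (39.8%), against 7879 of all 17810 probes, which is a larger share. It was 24 without challenged knockout mouse 1, 61 without challenged knockout mouse 2 and 33 without challenged wild type mouse 4. Over all 17810 probes the calls in these fits numbered 6389, 6619 and 7338. With the 8 arrays of the comparison alone 15 member probes were called, of which 12 were higher and 3 lower, against 3336 of all 17810 probes.

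Ndufb4, an accessory subunit of the membrane arm of complex I, showed the largest genotype difference. Its log2 intensity was 8.57, 7.98, 8.81 and 8.51 in challenged knockout mice, against 6.79, 7.67, 6.98 and 6.49 in challenged wild type mice. It was 7.16, 7.43, 7.23 and 7.26 in untreated knockout mice and 7.02, 6.67, 6.94 and 6.42 in untreated wild type mice. The challenged knockout mice were above every other mouse. The difference after challenge was 1.49 ± 0.22 (2.8-fold, adjusted p = 0.000328, limma), and 1.32 without challenged wild type mouse 4. With the muscle covariate it was 1.19 (adjusted p = 0.00586, limma).

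Uqcrb had 11.33, 10.30, 11.21 and 11.08 in challenged knockout mice, against 10.08, 10.25, 9.86 and 9.33 in challenged wild type mice. In untreated mice it had 9.50, 9.62, 9.55 and 9.48 in knockout and 9.87, 9.31, 9.50 and 9.36 in wild type mice. The challenged groups were apart by a narrow margin, set by challenged knockout mouse 2 and challenged wild type mouse 2. The difference after challenge was 1.10 ± 0.22 (adjusted p = 0.00162, limma), and the challenge difference was 1.44 ± 0.22 in knockout and 0.37 ± 0.22 in wild type mice (adjusted p = 0.000403 and 0.193, limma). Without challenged wild type mouse 4 the wild type difference was 0.56 and called (adjusted p = 0.0395, limma).

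Cox7b was higher in challenged knockout than in challenged wild type mice by 1.25 ± 0.25 (adjusted p = 0.00161, limma) and Cox7a2 by 0.93 ± 0.24 (adjusted p = 0.00707, limma). The Cox7a2 call was lost with the 8 arrays of the comparison alone (adjusted p = 0.0622, limma) and with the muscle covariate (0.78, adjusted p = 0.0645, limma), and its lowest value without 1 array or under another setting was 0.61. Cox7a2 had 8.46, 8.17, 8.40 and 8.55 in challenged knockout mice, against 7.59, 8.07, 7.70 and 6.48 in challenged wild type mice, with no overlap. Sdhd was higher by 1.10 ± 0.42 (adjusted p = 0.0424, limma), a call lost in 11 of the 16 fits that left out 1 array, and the difference was 0.47 (adjusted p = 0.0146, limma) without challenged wild type mouse 4. Cox4i2 was lower in challenged knockout mice by -0.87 ± 0.23 (adjusted p = 0.00824, limma). Uqcrq, a small subunit of complex III, was above the 40th percentile in 0 of 4 challenged knockout mice and was at least 1.38-fold lower there than in challenged wild type mice (adjusted p = 0.00146, limma). Atp5k, which passed the filter only through challenged knockout mice, had 6.41 to 6.71 there, against 5.72 to 5.93 in challenged wild type mice.

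Among the striated muscle markers, 8 of 25 were higher and 1 lower in challenged knockout mice than in challenged wild type mice. Over all tested probes 21.1% were higher and 23.1% lower in this comparison. The median difference of the markers was 0.96. With the muscle mean as a covariate 15 of 93 member probes were called (16.1%), below the share of all probes in that fit, 5620 of 17810 (31.6%). Of the 15, 10 were higher and 5 lower, with Ndufb4, Cox7b and Uqcrb on the higher side.

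In untreated mice no subunit gene was called between genotypes. Of the 93 member probes 0 passed in limma, against 0.0168% of all tested probes (3 probes), and 12 had an unadjusted p under 0.05, against 327 of all 17810 probes. Each other fit tried, array weights included, also called 0. The median difference of the 70 genes was 0.17, and over all tested probes it was 0.0. The 25 muscle markers had a median difference of 0.27 in this comparison, with 0 called.

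The interaction, the challenge difference in knockout minus that in wild type mice, was positive for 54 of the 70 tested subunit genes, with a median of 0.20. It passed for 1 gene in each direction, over probes 2 of 93, against 9.33% of all tested probes. Uqcrb had an interaction of 1.07 ± 0.31 (adjusted p = 0.0433, limma), and the call was lost in 11 of the 16 fits without 1 array, with adjusted p up to 0.0967. Cox4i2 had an interaction of -1.19 ± 0.32 (adjusted p = 0.0364, limma), lost in 8 of 16 such fits, with adjusted p up to 0.0825. The number of member probes called for the interaction lay between 0 and 8 in these fits. For Ndufb4 the interaction was 0.98 ± 0.31 (adjusted p = 0.0591, limma). The challenge comparisons share no mice, whereas the genotype comparison after challenge shares the challenged mice with both.

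Other genes of the pathway were examined as lists. Over all tested probes 9.1% rose and 7.48% fell with challenge in knockout mice, and 11.7% rose and 17.7% fell in wild type mice. These shares are the background for each list that follows. Assembly factors outside the members build the complexes without staying in them. Of 29 tested, 6 rose (20.7%) and 0 fell in knockout mice, with a median of 0.26. In wild type mice 5 rose (17.2%) and 4 fell (13.8%), near the shares of all tested probes, with a median of -0.02. Uqcc2, which helps assemble complex III, differed by 0.82 ± 0.13 in knockout and 0.81 ± 0.13 in wild type mice (adjusted p = 0.000595 and 0.000523, limma). Among the 6 tested members that are not subunits, 3 rose in knockout mice (Ndufaf1, Ndufaf5 and Ndufs5-ps) and 1 in wild type mice (Ndufs5-ps). Ttc19, a complex III assembly factor, rose in knockout mice by 0.84 ± 0.17 and differed by -0.35 ± 0.17 in wild type mice, with an interaction of 1.19 (adjusted p = 0.0135, limma). Of the assembly factors outside the members 10.3% were called for the interaction, near the 9.33% of all tested probes.

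Citric acid cycle enzymes supply the electrons, and 7 of 12 tested rose in knockout mice and 2 in wild type mice, with medians of 0.66 and 0.30 and 0 called lower. Malate dehydrogenase Mdh2 differed by 1.13 ± 0.26 in knockout and 0.74 ± 0.26 in wild type mice (adjusted p = 0.00687 and 0.0431, limma). Of 13 tested carriers and electron transfer proteins, 9 rose and 1 fell in knockout mice, and 5 rose and 2 fell in wild type mice, with medians of 0.77 and 0.33. Ckmt2, the mitochondrial creatine kinase of heart and skeletal muscle, had the largest difference of that list, 2.49 ± 0.43 in knockout and 2.22 ± 0.43 in wild type mice (adjusted p = 0.000953 and 0.00179, limma). Coq10b, which binds coenzyme Q, fell by -0.84 ± 0.24 in knockout and by -1.27 ± 0.24 in wild type mice (adjusted p = 0.0256 and 0.00171, limma).

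Most regulators of mitochondrial biogenesis were not called in knockout mice. Of 11 tested, 2 rose and 0 fell in knockout mice (Ppargc1b and Esrrb), and 1 rose and 4 fell in wild type mice, with medians of 0.17 and -0.17. The shares were 18.2% higher in knockout mice, against 9.1% of all tested probes. In wild type mice they were 9.09% higher and 36.4% lower, against 11.7% and 17.7%. The coactivator gene Ppargc1b differed by 1.06 ± 0.26 in knockout and 0.41 ± 0.26 in wild type mice (adjusted p = 0.0103 and 0.238, limma). Its relative Ppargc1a was above the 40th percentile in 0 of 4 challenged wild type mice and was at least 1.34-fold lower there than in untreated wild type mice (adjusted p = 0.00358, limma), and it differed by -0.13 ± 0.15 in knockout mice (adjusted p = 0.607, limma). Tfb2m, a factor that starts transcription of mitochondrial DNA, differed by 0.44 in knockout mice, which did not pass, and was at least 1.26-fold lower in challenged than in untreated wild type mice (adjusted p = 0.00368, limma), where 0 of 4 challenged mice were above the 40th percentile. Of 13 mitochondrially encoded subunits, 0 had a probe, so the products of mitochondrial DNA were not measured.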

How the data were processed

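Lung RNA of 16 mice was measured, 1 array each. Each deposited value is the linear intensity of a probe, exported with GenomeStudio 2011.1 per the submitters' processing notes. The authors' background treatment and normalization are not given in the sources used here. Intensity ran from 0.1 to 45825.5, and the sorted arrays differed by at most 4.9 (median 242.8 at that rank), so no further normalization was applied. Since all arrays have nearly the same distribution, a shift common to most probes of an array would not be seen. Probe symbols came from GEO's platform annotation, with 23978 probes of 1 symbol, 0 of several and 1719 unlisted, and 23962 were matched to the RefSeq gene table, with 0 symbols updated.

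Values were raised to 16, which affected 1123 of 411152, and log2 transformed. A probe entered the test if, on 4 or more arrays, it exceeded that array's 40th percentile. A group mean model of all 16 arrays was fitted with limma 3.58.1 in R 4.3.3 (lmFit, contrasts.fit, eBayes), and p-values were adjusted by Benjamini-Hochberg over 17810 probes per contrast. A difference is a lower bound where the dimmer group was above the 40th percentile in at most 1 of 4 mice. Fits were tested on simulated data.

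Named genes were the 3 largest called changes per complex and challenge contrast, genes called between genotypes or in the interaction up to 5, all of complex II, the isoform groups, and up to 3 per pathway list. Uqcrq, Atp5k, Atp5o, Atp5b, Atp5j, Myl2, Sftpd, Cidea, Cpt1b, Ucp1 and the genes called under the muscle covariate were chosen after their values were seen. Members and lists were chosen with earlier results of these data known. Alternatives were cyclic loess, another floor, a 60th percentile filter or none, trended and robust eBayes, array weights, the 8 arrays of a comparison alone, the replicate number as a block, the muscle mean as a covariate, and leaving out each array. Each mouse is a separate animal per the labels.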

Additional observations from a re-analysis of the deposited data

Results flagged for a closer look

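Dixon's criterion was applied to 148 sets of 4 values, from 36 genes and the subunit mean in each of the 4 groups. In 18 sets 1 mouse lay far from the other 3. Independent sets would do so by chance in about 1 in 20, but these share the same mice and many genes move together. The 18 can therefore not be set against that rate. Challenged knockout mouse 2 was the low mouse in 9 of the 18. Its log2 intensity was 10.36 for Atp5g1 (others 11.56 to 11.7), 11.21 for Cox6b1 (others 11.73 to 11.82) and 11.77 for Cox6c (others 12.34 to 12.41). It was 9.62 for Cox7a1 (others 11.19 to 11.44), 7.69 for Cox7b (others 8.41 to 8.5) and 10.73 for Cox7c (others 11.33 to 11.45). It was 9.58 for the muscle isoform Cox8b (others 11.1 to 11.4), 10.98 for Ndufa4 (others 11.89 to 11.92) and 11.48 for Uqcr11 (others 12.07 to 12.15). Challenged knockout mouse 2 also had the lowest striated muscle mean of its group, 10.27 against 11.27 to 11.40 in the others.

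Challenged knockout mouse 3 was low for Cox4i2, at 6.87 (others 8.0 to 8.22). Challenged wild type mouse 4 was low for Cox7a2l, at 7.7 (others 9.42 to 9.59), and challenged wild type mouse 2 was high for Cox4i1, at 12.21 (others 11.9 to 11.95). Untreated knockout mouse 1 was low for Cox6a1 at 10.39, for Cox6b1 at 10.58 and for Cox7a1 at 8.3. Untreated knockout mouse 2 was high for Atp5g2 at 8.9 and for Uqcr11 at 11.19. Untreated wild type mouse 1 was high for Uqcrh at 10.78 (others 10.48 to 10.5).

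The challenge difference was tested between genotypes, and the test passed for 2 subunit genes. It was larger in knockout than in wild type mice by 1.07 for Uqcrb, and for Cox4i2 the knockout minus wild type value was -1.19.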

How the results depend on the processing

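The numbers of member probes called were 70 for challenge in knockout mice and 54 for challenge in wild type mice. They were 37 for genotype after challenge, 0 for genotype in untreated mice and 2 for the interaction. Leaving out 1 array in turn gave 57 to 82, 50 to 73, 24 to 61, 0 to 0 and 0 to 8, in that order of comparisons. The lowest and highest genotype counts after challenge, 24 and 61, came without challenged knockout mouse 1 and without challenged knockout mouse 2, and the interaction count moved by over 1.5 times in 15 of 16 such fits. The striated muscle covariate gave 0 for challenge in knockout mice, 11 for challenge in wild type mice, 15 for genotype after challenge and 1 for the interaction, and the cause was not tested. In that fit Uqcrq carried the interaction call. Array weights gave 8 for the interaction, and the 8 arrays of the comparison alone gave 15 for genotype after challenge. The replicate number as a block gave 68, 54, 38, 0 and 2. Of 16 same-number pairs, 5 correlated above 0.1, over a range of -0.09 to 0.32, which cannot settle whether replicate numbers pair the mice. Of 66 calls of single named genes, 60 kept their call in every fit without 1 array, and 61 kept it under every other alternative except the muscle covariate, against 10 with that covariate included. None of these calls changed sign in any setting. Many of the genes were named for their large called changes in the main fit, and the non-members Cox6a2 and Cox8b are included. How often they kept a call therefore does not describe the member calls as a whole. Over all probes the challenge calls in knockout mice numbered 2954, and 7048 with array weights, 5818 with the 8 arrays alone and 5424 without challenged wild type mouse 4. For wild type mice they numbered 5244, and 2084 with the 8 arrays alone. Dim probes limit Ndufs1, Ndufb11, Uqcrfs1, Cox7b2, Cox8c and Ndufaf3, which were not tested.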
